A study of Mus musculus with 12 samples.

Results

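The genes described here encode the subunits of the receptors for glutamate and for GABA, the main excitatory and inhibitory transmitters of the brain. They were taken by gene symbol from the protein-coding genes of the deposited tables, which gave 46 genes of 35272 (21899 of them protein coding). The set held 4 AMPA, 7 NMDA, 5 kainate, 2 delta and 8 metabotropic glutamate receptor genes, together 26, and 18 GABA-A and 2 GABA-B receptor genes, together 20. RNA came from the prefrontal cortex of female C57BL/6JN mice, aged 4 months (young) or 20 months (old), that had been given saline or morphine at 3 mg/kg into the peritoneum. Each combination of age and injection had 3 libraries, which makes 4 groups. Strain, sex and region were shared by all 12 libraries. The time from injection to dissection is not stated in the sources used here, and the labels do not say whether the libraries of a group came from separate animals, so the p-values measure the spread between these libraries.

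Ionotropic receptors are ion channels built from several subunits, and the subunits present set how fast, how long and to which ions a channel opens. AMPA, NMDA and kainate receptors admit cations and depolarise the cell, whereas GABA-A receptors admit chloride and in mature neurons usually restrain firing. Metabotropic glutamate and GABA-B receptors act through G proteins, often on the presynaptic terminal, and the Gi-coupled ones share their signalling route with the opioid receptors on which morphine acts.

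Estimated reads per library ranged from 20236452 to 40480571, apart from young morphine 2 with 148856113, which was 4.31 times the median of the others. Depth limited only the rarest subunits: 40 of the 46 genes passed the filter on low counts and were tested among 16796 genes. Markers of cortical glutamatergic neurons were present in every library, with a summed level of 1749 to 2232 CPM (counts scaled to library size). In 4 libraries, markers of olfactory bulb neurons stood apart: their summed level was 85.3 to 169.5 CPM in young morphine 3, old saline 1, old saline 2 and old morphine 1, and 21.03 to 31.2 CPM in the other 8. The age differences of the called members over both treatments are therefore given with and without those libraries. Other results use all 12 libraries unless stated.

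Levels between genes were compared in TPM, a measure scaled to both library size and transcript length. GABA-A subunits together reached 1109 to 1334 TPM across the 12 libraries, AMPA subunits 744.5 to 872 TPM, NMDA subunits 647 to 764 TPM and GABA-B subunits 626 to 731 TPM. Metabotropic glutamate receptors summed to 433 to 536 TPM and kainate subunits to 216 to 287 TPM. AMPA and NMDA sums overlapped, as did those of NMDA and GABA-B, and the other neighbours in this order did not.

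**Figure D1:**
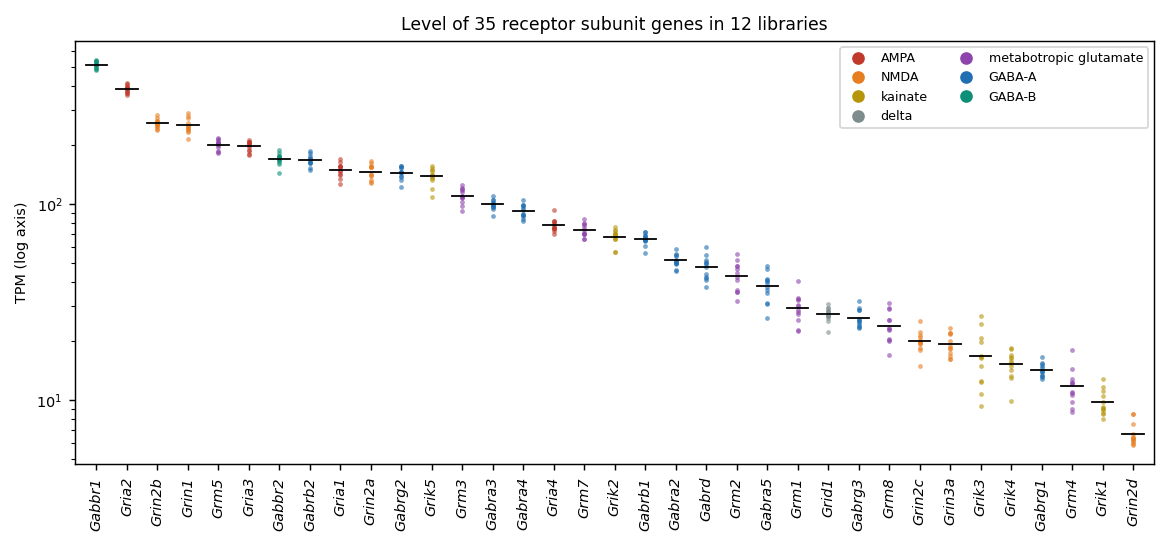
Level of 35 receptor genes with a mean of at least 1 TPM, ordered by mean, on a log axis. Points are the 12 libraries, the bar is their mean and the colour gives the receptor class; Gabbr1 stands at 512 TPM and Grin2d, the lowest shown, at 6.72 TPM.

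Gabbr1, the GABA-B subunit that binds GABA, had the highest level of all members, with a mean of 512 TPM (range 482 to 542). Gria2, the AMPA subunit that keeps calcium out of the channel once edited, followed at 385.5 TPM (357 to 413). Gabbr1 lay above it in every library. Grin2b and Grin1 were close to each other, at 257 TPM (239 to 283) and 251 TPM (214.5 to 289), and Grm5 and Gria3 were likewise indistinguishable at 200.2 TPM (182.5 to 217) and 197 TPM (177 to 212). Grin1 is the obligatory NMDA subunit, Grin2b a glutamate-binding one, and Grm5 a Gq-coupled receptor of the postsynaptic side. Among kainate subunits Grik5 stood highest at 138 TPM (108 to 156), above Grik2 at 68.0 TPM (56.6 to 76.5) without overlap. Grid1, a delta subunit, was lower at 27.4 TPM (22.1 to 30.7).

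Of the 46 genes, 38 had a mean of at least 1 TPM, 22 of at least 50 TPM and 15 of at least 100 TPM. The lowest genes that still passed the filter were Gabrq at 0.817 TPM and Gabrr2 at 0.43 TPM, the latter with 2 to 34 reads per library. The other 6 were not tested. Gabre, Grin3b, Gabrr1 and Gabrr3 had between 0 and 20 reads in each library, and Grm6, the receptor of retinal ON bipolar cells, had 2 reads in all 12 libraries together. Gabra6, the alpha subunit known from cerebellar granule cells, had 24 reads in old saline 3, 4 reads each in young morphine 1 and young morphine 2, and 0 in the other 9, where 0 reads allow a level of up to 0.0741 to 0.148 CPM (3 reads; counting error only).

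The first comparison asked which subunits differed between old and young mice over both treatments. With edgeR's quasi-likelihood test and Benjamini-Hochberg adjustment over all genes, 5 members fell with age and 1 rose, that is 6 of 40, against 12.1% of all genes tested in either direction (6.41% lower and 5.69% higher). The genes that fell were Grm2 and Grm3, which encode the group II metabotropic receptors; Grin1 and Grin3a of the NMDA receptor; and Grik5 of the kainate receptor. Gabra2, an alpha subunit of the GABA-A receptor, rose. Over all 40 tested members the median difference was -0.03 on the log2 scale and 26 were lower in old mice, beside a median of 0.02 and 45.5% lower over all genes. Without the 4 libraries high in olfactory bulb markers, which leaves 1 old saline library, no member was called (0 of 42). An unadjusted p under 0.05 was then reached by 11 of the 40 members, all lower, beside 8.13% of all genes lower and 6.91% higher.

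Grm2 encodes mGlu2, a presynaptic receptor that reduces transmitter release. Its level was 100.4, 81.2 and 81.9 CPM in young saline, 81.2, 73.5 and 87.45 in young morphine, 76.2, 64.05 and 67.95 in old saline, and 61.4, 61.5 and 56.5 in old morphine. The groups of equal treatment did not overlap between the ages, and the 3 old morphine libraries were the lowest of all 12. The difference, old minus young, was -0.39 ± 0.06 (log2, SE), a level 23.4% lower, with an adjusted p of 0.00356 by edgeR's quasi-likelihood test. Without the 4 libraries it was -0.38 ± 0.08, with an adjusted p of 0.0676. Its relative Grm3, which is found in astrocytes as well as neurons, gave 189, 180.4 and 193 CPM in young saline, 170.8, 164 and 168 in young morphine, 162, 149 and 159.7 in old saline, and 138, 162 and 170.8 in old morphine. Old saline lay wholly under young saline, whereas old and young morphine overlapped. The age difference of Grm3 was -0.18 ± 0.05 (adjusted p = 0.0299, edgeR's quasi-likelihood test), and -0.12 ± 0.05 without the 4 libraries (adjusted p = 0.304).

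Grin1 encodes GluN1, the glycine-binding subunit without which no NMDA receptor forms. It measured 535, 500.0 and 497 CPM in young saline, 549, 560.6 and 529 in young morphine, 475, 450.3 and 485 in old saline, and 455.5, 458 and 459.9 in old morphine. In TPM its mean was 243.5 ± 7.16 in young saline and 250.1 ± 9.05 in old saline (SD, n = 3), so not lower in old mice. With morphine it was 281.8 ± 7.47 TPM in young and 229.2 ± 13.3 TPM in old mice. In CPM all 6 old libraries were below all 6 young ones, and old morphine varied least (458 ± 2.23 CPM, SD, n = 3). Its age difference was -0.19 ± 0.04 on the log2 scale, 12.2% lower (adjusted p = 0.00587, edgeR's quasi-likelihood test), and -0.18 ± 0.05 without the 4 libraries (adjusted p = 0.1485). Grin3a, a subunit that lowers calcium entry and is known from developing synapses, measured 63.0, 67.7 and 70.6 CPM in young saline, 61.55, 66.7 and 68.7 in young morphine, 56.9, 54.0 and 55.7 in old saline, and 50.8, 52.6 and 57.4 in old morphine. Here too the 6 old libraries were below the 6 young ones. The difference was -0.28 ± 0.05, 17.8% lower (adjusted p = 0.00284, edgeR's quasi-likelihood test), and -0.25 ± 0.07 without the 4 libraries (adjusted p = 0.116).

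Grik5 encodes GluK5, a kainate subunit of high affinity that works only together with another kainate subunit. It measured 232, 229 and 205 CPM in young saline, 229, 220.3 and 227 in young morphine, 193, 196 and 194 in old saline, and 184, 188 and 169.8 in old morphine. The 6 old libraries again lay below the 6 young ones. The difference was -0.26 ± 0.04, 16.3% lower (adjusted p = 0.00232, edgeR's quasi-likelihood test), the smallest p of any member, and -0.26 ± 0.06 without the 4 libraries (adjusted p = 0.0843). In CPM, Grik5, Grin1 and Grin3a were the only members whose 6 old and 6 young libraries were fully separated, 3 of 40, where 4.07% of all genes were. On the TPM scale Grik5 was 141.9 ± 9.87 in young saline and 138.1 ± 2.64 in old saline (SD, n = 3), which differ by less than the SD of young saline. With morphine it was 150.4 ± 5.23 TPM in young and 121.6 ± 15 TPM in old mice.

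Gabra2, whose product is an alpha subunit of synaptic GABA-A receptors and a target of benzodiazepines, was 61.05, 68.55 and 66.1 CPM in young saline, 59.7, 59.6 and 58.1 in young morphine, 69.0, 65.2 and 62.4 in old saline, and 73.1, 67.15 and 74.2 in old morphine. Old and young overlapped in saline and were apart in morphine. The age difference was 0.14 ± 0.04, 10.3% higher (adjusted p = 0.0461, edgeR's quasi-likelihood test), and 0.09 ± 0.06 without the 4 libraries (adjusted p = 0.530). On the TPM scale, which divides by the effective lengths deposited for each library, the 4 groups of Gabra2 did not separate: 49.9 ± 4.52 in young saline, 51.7 ± 2.34 in young morphine, 52.6 ± 2.36 in old saline and 51.7 ± 6.58 in old morphine (SD, n = 3).

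**Figure D2:**
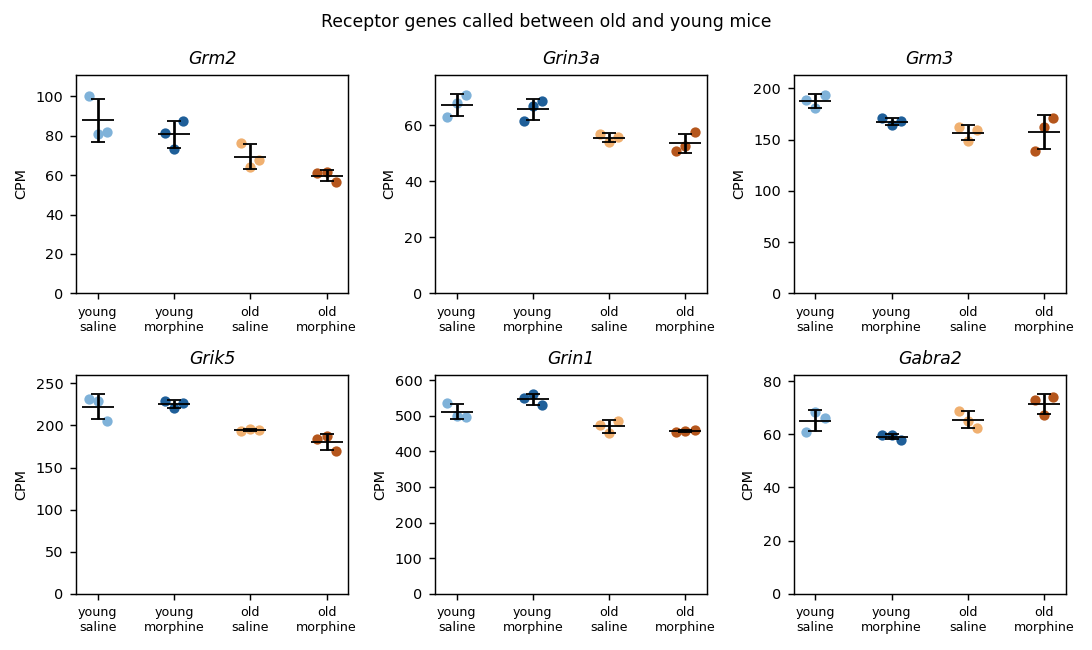
CPM of the 6 members called between old and young mice, by group; points are libraries, the long bar is the mean and the error bar its SD (n = 3). The old groups lie lower for Grm2, Grin3a, Grik5 and Grin1, Grm3 overlaps between the morphine groups, and Gabra2 is highest in old morphine.

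Transcripts of the called genes differed in base composition. The mean GC share was 58.0% for Grm2, 58.9% for Grin1, 60.8% for Grik5, 49.1% for Grin3a and 47.6% for Grm3, against 37.6% for Gabra2. Across the 40 members the age difference was lower where GC share was higher (Spearman rho -0.597, a description over genes measured in the same libraries), and the same held over 16780 genes (rho -0.469). The fit was repeated with the trend of all genes on GC share and transcript length removed. Then 3 of the 6 members remained called: Grin3a at -0.29 ± 0.05 (adjusted p = 0.00571), Grm2 at -0.27 ± 0.06 (adjusted p = 0.0229) and Grm3 at -0.21 ± 0.05 (adjusted p = 0.0251), by edgeR's quasi-likelihood test. Grik5 and Grin1 were reduced to -0.09 and -0.05 and were no longer called (adjusted p = 0.127 and 0.512), and Gabra2 changed sign, to -0.08 (adjusted p = 0.411). Counts scaled by the deposited effective lengths left Grin3a at -0.31 (adjusted p = 0.0129) and Grm2 at -0.35 (adjusted p = 0.0321) as the called members.

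**Figure D3:**
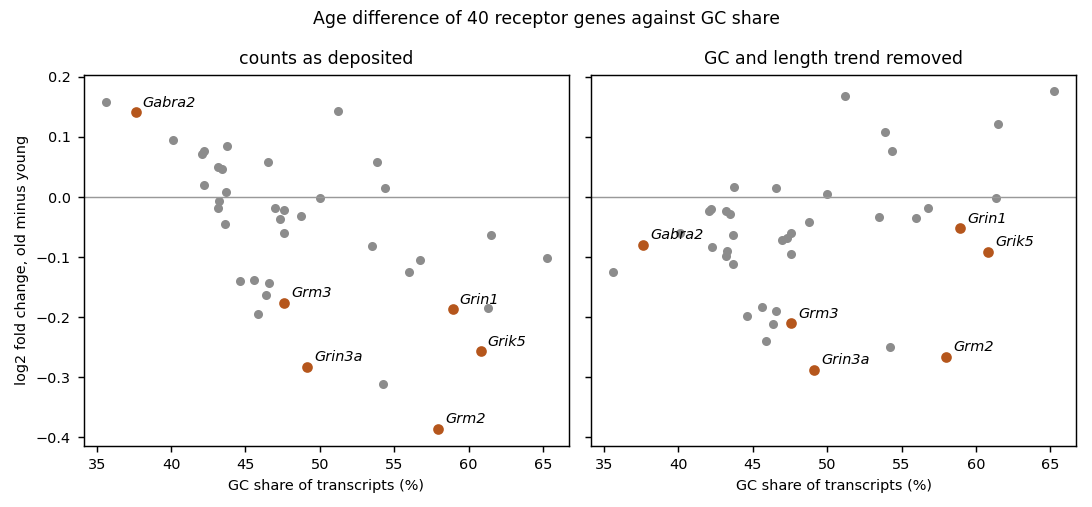
Age difference (log2, old minus young) of the 40 tested receptor genes against the mean GC share of their transcripts, from counts as deposited (left) and with the trend of all genes on GC share and length removed (right). Named points are the 6 called genes; on the left the points fall from Gabra2 to Grm2, and on the right Gabra2, Grin1 and Grik5 lie near 0 while Grin3a, Grm2 and Grm3 lie at or below -0.21.

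The starts of these genes are shown because the main fit over both treatments called the group II pair lower and Gabra2 higher. The sequences are from RefSeq on GRCm38.p6, run from 250 bases before the annotated start to 50 bases after it, and are written 5′ to 3′ on the gene's own strand. Capitals mark the GC box, the letters GGGCGG on either strand, a motif bound by factors of the Sp1 family.
Grm2 promoter, chr9:106656060-106656359, minus strand: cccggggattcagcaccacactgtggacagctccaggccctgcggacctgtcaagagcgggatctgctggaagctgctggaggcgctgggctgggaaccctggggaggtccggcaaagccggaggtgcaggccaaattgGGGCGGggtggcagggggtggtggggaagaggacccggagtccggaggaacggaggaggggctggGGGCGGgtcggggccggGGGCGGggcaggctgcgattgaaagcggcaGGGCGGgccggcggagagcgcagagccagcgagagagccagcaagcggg
Grm3 promoter, chr5:9725303-9725602, minus strand: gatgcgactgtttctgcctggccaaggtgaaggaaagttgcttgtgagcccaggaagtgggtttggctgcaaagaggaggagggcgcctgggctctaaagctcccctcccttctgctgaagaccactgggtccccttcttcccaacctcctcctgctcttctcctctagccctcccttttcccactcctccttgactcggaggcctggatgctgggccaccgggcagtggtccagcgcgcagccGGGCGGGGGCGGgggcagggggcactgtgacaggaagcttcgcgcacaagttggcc
Gabra2 promoter, chr5:71095800-71096099, minus strand: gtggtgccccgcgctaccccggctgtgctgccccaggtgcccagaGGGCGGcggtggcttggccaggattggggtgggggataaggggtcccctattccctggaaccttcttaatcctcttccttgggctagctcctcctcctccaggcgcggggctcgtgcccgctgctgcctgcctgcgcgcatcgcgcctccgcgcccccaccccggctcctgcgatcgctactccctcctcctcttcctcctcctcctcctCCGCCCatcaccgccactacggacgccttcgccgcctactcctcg
The Grm2 window held 4 GC boxes, that of Grm3 held 2 that adjoin, close to the annotated start, and that of Gabra2 held 2. The Grik5 window held 2 and the Grin1 window 1. The 31 members with an entry had 38 windows, of which 19 (50%) held at least 1 box, while 35.7% of 32851 promoters held one. The windows of Grm2, Grik5 and Gabra2 were equally rich in G and C, at 72.0%, 72.0% and 70%, against a median of 52.7% over all promoters, although the transcripts of Gabra2 were GC-poor. The Grm2 gene lies on chromosome 9 (106643095 to 106656082, minus strand, GRCm38) and shares 470 exon bases with Gm28111 on the other strand; Grin1, on chromosome 2 (25291181 to 25319187, minus strand), shares 1307 exon bases with Grin1os. The sources used here do not state whether counting used the strand, so reads in those bases cannot be told apart.

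Split by treatment, the age comparison called fewer members. Between old and young saline groups none of the 40 members was called by edgeR's quasi-likelihood test, against 0.464% of all genes, while DESeq2 called 4 (Grik5, Grin3a, Grm2 and Grm3, all lower). An unadjusted p under 0.05 was reached by 8 members, all of them lower in old mice, which is 20% of the members beside 6.9% of all genes in that direction. Those with the smallest p were Grin3a (-0.27 ± 0.06, adjusted p = 0.0851), Grm3 (-0.26 ± 0.07, adjusted p = 0.115) and Grm2 (-0.34 ± 0.09, adjusted p = 0.128). In saline, 30 of the 40 differences were negative with a median of -0.09, beside 47.7% negative and a median of 0.01 over all genes, and 14 of the 16 GABA receptor genes were among the negative ones. With the GC and length trend removed the median was -0.09, with 30 negative. It was nearer 0 without old saline 2 (median -0.04, 26 of 41 negative), and 4 of the 40 members then had an unadjusted p under 0.05 and a lower value, beside 4.98% of all genes. Without young saline 3 that count was 5 (6.36% of all genes), and without the 4 libraries high in olfactory bulb markers it was 6 (3.46% of all genes), with a median of -0.08 and 34 of 42 negative.

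Between the morphine groups, 5 of 40 members were called, against 9.65% of all genes. Grik5 (-0.32 ± 0.06, adjusted p = 0.0062), Grin1 (-0.25 ± 0.05, adjusted p = 0.00934), Grm2 (-0.43 ± 0.09, adjusted p = 0.0125) and Grin3a (-0.29 ± 0.06, adjusted p = 0.014) fell, and Gabra2 (0.27 ± 0.06, adjusted p = 0.0142) rose, all by edgeR's quasi-likelihood test. Neither without the 4 libraries nor with the GC and length trend removed was any member called (0 in both fits); with the trend removed 6 had an unadjusted p under 0.05, all lower, beside 5.02% of all genes lower and 7.64% higher. Without young morphine 1, and likewise without old morphine 3, 3 were called (Grik5, Grin1 and Grin3a). Among glutamate receptors the median difference was -0.08 with 16 of 24 lower, and among GABA receptors 0.06 with 6 of 16 lower, on the log2 scale, beside a median of 0.01 and 47.6% lower over all genes. The GABA receptor median changed sign with the GC and length trend removed (-0.05, 10 of 16 lower), with counts scaled by effective length (-0.03, 11 lower) and without old morphine 3 (-0.01, 9 lower). The correlation of these differences with GC share was -0.741 over the members and -0.574 over all genes. The saline and morphine comparisons use separate libraries, but the difference between them, the interaction of age and treatment, called no member.

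None of the other members was called between the ages over both treatments. All 4 AMPA genes lay between -0.03 and 0.08. Of the kainate genes besides Grik5, Grik3 had the widest interval (-0.31, from -0.75 to 0.13), and its libraries ranged from 45.2 to 124 CPM. Grid1 was at -0.00 ± 0.04, with a 95% interval of -0.08 to 0.08, and its values were 69.9, 69.6 and 68.3 CPM in young saline, 75.1, 71.3 and 67.9 in young morphine, 70.5, 70.6 and 74.8 in old saline, and 65.8, 71.6 and 68.5 in old morphine. The groups overlapped except that old saline lay above young saline. Among GABA receptors, Gabbr2, the GABA-B subunit that couples to the G protein, was at -0.12 ± 0.04 (adjusted p = 0.0589), and Gabrg1 at 0.16 ± 0.07 (adjusted p = 0.136). Gabbr1 was at -0.08 ± 0.04 (adjusted p = 0.216), with 806, 716 and 754 CPM in young saline, 765, 764 and 715 in young morphine, 711, 683 and 729 in old saline, and 679.8, 715 and 752 in old morphine; the ages overlapped in both treatments.

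Markers of cell types were read in the same age comparison, in the main fit only. Over all genes, 6.41% were called lower, 5.69% were called higher and 45.5% were lower by sign. The summed level of 10 markers of cortical glutamatergic neurons was 2010 to 2232 CPM in young saline and 2027 to 2193 in young morphine, against 1758 to 1886 in old saline and 1749 to 1901 in old morphine, so that the ages did not overlap in this sum. In the mean of their log2 CPM, which gives the 10 equal weight, the ages overlapped (6.19 to 6.435 in young and 5.96 to 6.39 in old libraries). Of the 10, 1 fell by the test (Slc17a7, the vesicular glutamate transporter, -0.30 ± 0.04, adjusted p = 0.001625, edgeR's quasi-likelihood test) and 8 were lower. Interneuron markers summed to 946 to 1134 CPM in young and 985 to 1227 in old libraries, and 1 of 12 rose (Vip, 0.33 ± 0.09, adjusted p = 0.0307, edgeR's quasi-likelihood test). The highest interneuron sums were 1227 CPM in old morphine 1, 1161 in old saline 2 and 1134 in young morphine 3, all high in olfactory bulb markers. Astrocyte markers, of interest for Grm3, summed to 6638 to 8200 CPM in young and 6855 to 8739 in old libraries, with 0 of 10 called. Of 8 markers of oligodendrocyte precursors 2 fell (Gpr17, -0.62 ± 0.05, and Olig1, -0.23 ± 0.05), with a median of -0.13 and 6 lower. Of 6 thalamic markers 1 rose (Rora, 0.17 ± 0.05, adjusted p = 0.0360, edgeR's quasi-likelihood test), with a median of 0.18 and 5 higher. The thalamic list shares Calb2 with the olfactory bulb list. Its mean log2 CPM was highest in old morphine 1 (4.413) and young morphine 3 (4.301), both high in olfactory bulb markers. The part of these shifts in the receptor differences was not tested, and in bulk RNA fewer cells of a type cannot be told apart from less RNA per cell.

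The proteins that carry, trap and anchor these receptors were read from lists of partner genes. These lists were tested in the main fit only, with all 12 libraries and without removal of the GC and length trend. Of 20 AMPA receptor partners 6 fell with age over both treatments and 0 rose, where 6.41% of all genes fell and 5.69% rose: the strongest were Cnih2 (-0.33 ± 0.05, adjusted p = 0.00221), Cacng8 (-0.29 ± 0.05, adjusted p = 0.00325), Porcn (-0.22 ± 0.05, adjusted p = 0.0128) and Cacng3 (-0.19 ± 0.05, adjusted p = 0.0245), by edgeR's quasi-likelihood test. Cnih2 and the 2 Cacng genes encode auxiliary subunits that escort AMPA receptors and slow their closing, while none of the 4 AMPA subunits was called. Of 20 scaffolds and enzymes of the excitatory postsynapse 7 fell and 0 rose, among them Lrrtm1 (-0.35 ± 0.04, adjusted p = 0.0006), Shank2 (-0.17 ± 0.04, adjusted p = 0.0102) and Dlgap3 (-0.27 ± 0.06, adjusted p = 0.0103). Of 19 partners of GABA receptors 5 fell and 1 rose; Nlgn2, the adhesion protein of inhibitory synapses, fell by 0.19 on the log2 scale (SE 0.04, adjusted p = 0.00752) and Rdx, the anchor of alpha5 receptors, rose by 0.12 (adjusted p = 0.048). Among 7 partners of kainate and delta receptors 1 rose (Grid2ip, 0.84 ± 0.14, adjusted p = 0.0029). Of 10 genes for glutamate synthesis, loading and uptake only Slc17a7 was called, and of 9 for GABA none was. The median differences of these lists were -0.09, -0.11, -0.05, -0.08, 0.01 and -0.02 in that order, beside 0.02 over all genes.

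The second comparison asked what morphine did to the receptors at each age. In young mice, none of the 40 members was called (0% of all genes were), and the smallest adjusted p was 0.313; DESeq2 and limma-voom called 0 as well. An unadjusted p under 0.05 was reached by 10 members (6 lower and 4 higher), beside 9.11% of all genes. By p-value GABA-A genes led. Gabrb1, a beta subunit, had 333, 336.5 and 365 CPM with saline and 296, 322.5 and 281.5 with morphine. The difference was -0.20 ± 0.06 (unadjusted p = 0.00551, edgeR's quasi-likelihood test). Gabra4, an alpha subunit found with delta outside the synapse, had 128, 130.3 and 141 CPM with saline and 107, 124 and 115.5 with morphine (-0.20 ± 0.07, adjusted p = 0.394). Grm5 had 351, 370 and 367 CPM with saline and 317, 335 and 319 with morphine (-0.16 ± 0.06, adjusted p = 0.395). For these 3 genes every young morphine library lay below every young saline one. The largest rise was that of Grik3, 0.69 on the log2 scale and not called. Its libraries were also apart, at 61.6 to 88.8 CPM with saline and 101 to 123.8 with morphine. Separation in either direction was seen for 11 of the 40 members (6 lower, 5 higher) and for 16.5% of all genes (8.22% lower, 8.28% higher).

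In old mice, none of the 40 was called either, against 0.583% of all genes, and 9 had an unadjusted p under 0.05 (4 lower, 5 higher), beside 18.7% of all genes; DESeq2 and limma-voom also called 0. Grin2c, an NMDA subunit known from astrocytes and cerebellum, had 39.2, 49.9 and 43.8 CPM with saline and 36.8, 40.7 and 31.55 with morphine (-0.29 ± 0.10, adjusted p = 0.144). Grik4, a kainate subunit of high affinity, had 35.7, 38.65 and 38.4 CPM with saline and 35.4, 28.9 and 25.1 with morphine (-0.33 ± 0.11, adjusted p = 0.148), the groups being apart by less than 1 CPM. Gria2 had 868, 781 and 797 CPM with saline and 866, 908 and 1001 with morphine, which overlap (0.18 ± 0.06, adjusted p = 0.152). Omission of old saline 1 gave 3 calls (Gabrd, Grik3 and Grin2c) and omission of old morphine 1 gave 1 (Grik4).

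**Figure D4:**
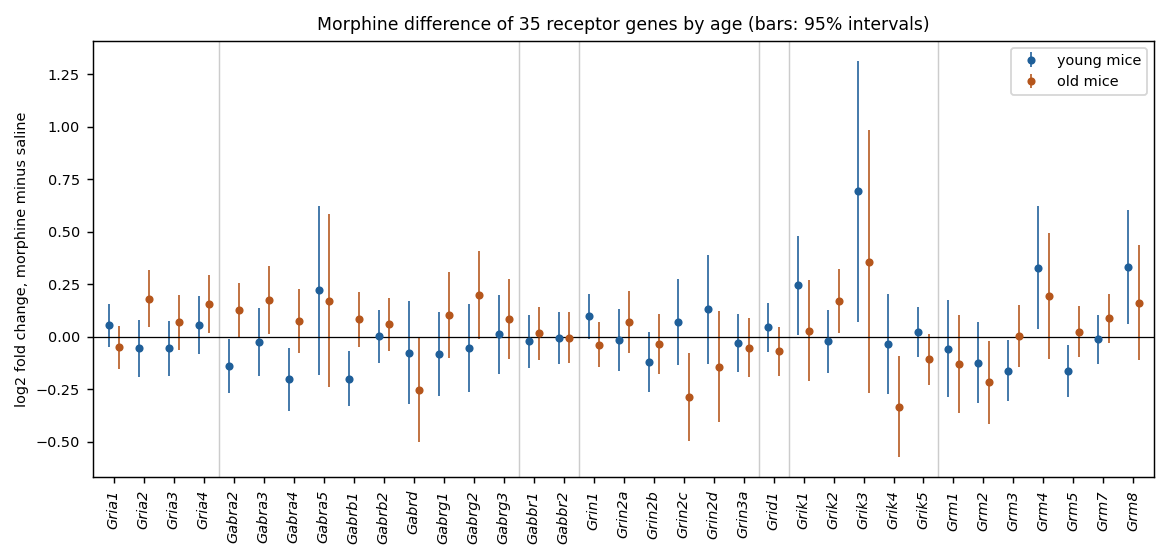
Morphine difference (log2, morphine minus saline) of 35 receptor genes in young (blue) and old (orange) mice, grouped by receptor class, with 95% intervals from the fit. Young GABA-A estimates lie mostly below 0 and old ones mostly above it, and Grik3 has the widest intervals.

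The direction of the GABA receptor estimates differed between the ages. In young mice 13 of 16 were lower with morphine (median -0.07 on the log2 scale), beside 50.7% of all genes, and in old mice 13 of 16 were higher (median 0.08), beside 49.4% of all genes. With the GC and length trend removed 12 were lower in young mice (median -0.04), and in old mice 8 were higher and 8 lower (median 0.00). Without young saline 1, 7 of the 16 were lower in young mice (median 0.00), and without old morphine 3, 10 were higher in old mice (median 0.02). The interaction of age and morphine, the direct test of that difference, called none of the 40 members (0% of all genes), by edgeR, DESeq2 or limma-voom, and 7 had an unadjusted p under 0.05, beside 10.8% of all genes. Its smallest p values belonged to Gabrb1 (0.28 ± 0.09, adjusted p = 0.285), Gabra2 (0.27 ± 0.09, adjusted p = 0.316) and Gabra4 (0.28 ± 0.10, adjusted p = 0.37), by edgeR's quasi-likelihood test. These 3 genes and Gabrg1 form a cluster on chromosome 5 (70751047 to 72149037, GRCm38). All 4 were lower with morphine in young mice, from -0.20 to -0.08, and higher in old mice, from 0.07 to 0.13, and their interaction ran from 0.19 to 0.28. Their transcripts are GC-poor, at 35.6% to 43.4%, and over the 40 members the interaction correlated with GC share at -0.725 (all genes -0.436). With the GC and length trend removed, all 4 were below 0 in old mice, from -0.18 to -0.01, and 3 of the 4 in young mice, from -0.19 to 0.03. Their interactions then split, at 0.18 for Gabrb1, 0.17 for Gabra4, -0.03 for Gabra2 and -0.21 for Gabrg1, and 1 of 40 members had an unadjusted p under 0.05.

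Over both ages, none of the 40 members was called for morphine, against 1.23% of all genes, and 20 were higher and 20 lower, while 6 had an unadjusted p under 0.05, beside 16.9% of all genes. Grm8, a presynaptic group III receptor, had 31.4, 32.0 and 32.6 CPM in young saline, 37.6, 44.2 and 38.7 in young morphine, 37.05, 24.5 and 30.3 in old saline, and 36.95, 29.7 and 36.2 in old morphine (0.25 ± 0.09, adjusted p = 0.188). Grm4, of the same group, had 22.96, 21.5 and 22.2 CPM in young saline, 25.6, 24.3 and 34.1 in young morphine, 21.96, 21.2 and 18.3 in old saline, and 27.6, 22.9 and 19.7 in old morphine (0.26 ± 0.10, adjusted p = 0.197). The highest Grm4 values were those of young morphine 3 and old morphine 1, both high in olfactory bulb markers. Grm2 went the other way (-0.17 ± 0.06, adjusted p = 0.2), and its young groups overlapped. With the olfactory marker score as a covariate Grm4 was the 1 member called, and without old saline 1 Grik3 and Grm8 were. Myelin markers were higher with morphine in young mice for 10 of 10 genes (median 0.51, none called), from 566 to 851 CPM summed in saline and 957 to 1073 in morphine, and for 8 of 10 in old mice (median 0.30, none called). By sign, 49.3% of all genes were higher with morphine in young mice and 49.4% in old mice. Microglia markers were lower for 10 of 10 over both ages (median -0.21, none called, 8 with an unadjusted p under 0.05). Of all genes, 49.2% were lower over both ages, and 8.63% were lower with an unadjusted p under 0.05. Astrocyte markers were lower for 9 of 10 over both ages (median -0.18). Of these, Gja1 (-0.25 ± 0.05, adjusted p = 0.0321) and Gjb6 (-0.35 ± 0.07, adjusted p = 0.0383) fell by edgeR's quasi-likelihood test, where 0.417% of all genes were called lower. The part of these markers in the receptor differences was not tested. The 1 partner gene that rose with morphine was Homer1, a scaffold that ties group I metabotropic receptors to the postsynapse and has an activity-induced short form: 0.69 ± 0.12 in old mice (adjusted p = 0.0245, edgeR's quasi-likelihood test) and 0.22 ± 0.12 in young mice (adjusted p = 0.63). Its interaction was 0.47 ± 0.16 (adjusted p = 0.369).

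The deposited tables are per transcript, and 182 transcripts of receptor genes could be tested. Only 1 of them was called, against 0.274% of 59815 transcripts in the age comparison over both treatments: Grik5-201, the coding transcript that holds 73.1% of Grik5 TPM. It had 217.5, 204 and 179 CPM in young saline, 209, 199 and 206 in young morphine, 174, 179 and 176.5 in old saline, and 162, 161 and 148 in old morphine. The difference was -0.28 ± 0.05 (adjusted p = 0.0496, edgeR's quasi-likelihood test). Transcripts of Grm2 (Grm2-201, -0.40 ± 0.07, adjusted p = 0.0531) and Grin3a (Grin3a-201, -0.33 ± 0.06, adjusted p = 0.0607) were close to it. These are the leading transcripts of their genes, with 67.5% and 61.3% of the gene's TPM. For Grin1, which is spliced into many forms, the leading transcript Grin1-201 held 31.3% (-0.35 ± 0.07, adjusted p = 0.0829). The main entry of Gabra2 was a retained-intron transcript, Gabra2-202, with 38.9% of its TPM, ahead of the coding Gabra2-203 with 32.6%. The files hold no measure of how uncertainly reads were split among transcripts.

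AMPA receptor genes carry a well-known alternative splice: 1 of 2 exons next to each other, called flip and flop, is included, and the choice alters how quickly the channel desensitises. In the annotation each of the 4 genes had such a pair of exons of 115 bases. They are named here by position, upstream and downstream, and were not assigned to flip or flop. The pairs of Gria1 and Gria2 are shown because the Gria1 share differed between young groups and the Gria2 pair shows the same layout. They are written 5′ to 3′ on the gene's strand on GRCm38, with capitals at the bases that differ within a pair.
Gria1 upstream exon, chr11:57309769-57309883, plus strand: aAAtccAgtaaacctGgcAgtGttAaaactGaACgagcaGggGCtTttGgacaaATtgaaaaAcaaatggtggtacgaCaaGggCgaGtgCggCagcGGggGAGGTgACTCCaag
Gria1 downstream exon, chr11:57310608-57310722, plus strand: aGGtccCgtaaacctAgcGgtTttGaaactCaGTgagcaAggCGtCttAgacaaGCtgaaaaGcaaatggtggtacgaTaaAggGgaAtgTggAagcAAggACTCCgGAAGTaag
Gria2 upstream exon, chr3:80691320-80691434, minus strand: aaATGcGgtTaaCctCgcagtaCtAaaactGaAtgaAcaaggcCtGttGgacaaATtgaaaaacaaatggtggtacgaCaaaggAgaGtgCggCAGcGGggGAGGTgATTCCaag
Gria2 downstream exon, chr3:80690404-80690518, minus strand: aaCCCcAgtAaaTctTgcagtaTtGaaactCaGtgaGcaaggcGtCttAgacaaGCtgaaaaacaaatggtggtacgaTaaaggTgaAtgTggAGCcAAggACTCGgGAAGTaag
Within each of these pairs 36 of 115 bases differ (68.7% identity), and 14 of the 36 in Gria1 and 16 of the 36 in Gria2 fall within the last 25 bases. The share of TPM from transcripts with the upstream exon differed among the genes, and over all libraries it was 22.2% to 34.0% for Gria2, 1.10% to 7.21% for Gria3 and 51.3% to 75.8% for Gria4. Gria1 lay between, at 46.3%, 40.6% and 48.4% in young saline, 50.004%, 51.7% and 51.7% in young morphine, 47.3%, 39.4% and 41.4% in old saline, and 44.9%, 47.6% and 50.2% in old morphine. The young groups were apart and the old groups overlapped. This share was picked out after its values were seen and carries no test of its own. The transcript with the downstream exon, Gria1-201, was at -0.16 ± 0.04 with morphine over both ages (adjusted p = 0.453, edgeR's quasi-likelihood test), and Gria1-202, with the upstream exon, at 0.16 ± 0.07 (adjusted p = 0.688). The transcripts of a pair also differ in length outside the exon, so the share is not a count of that exon alone.

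**Figure D5:**
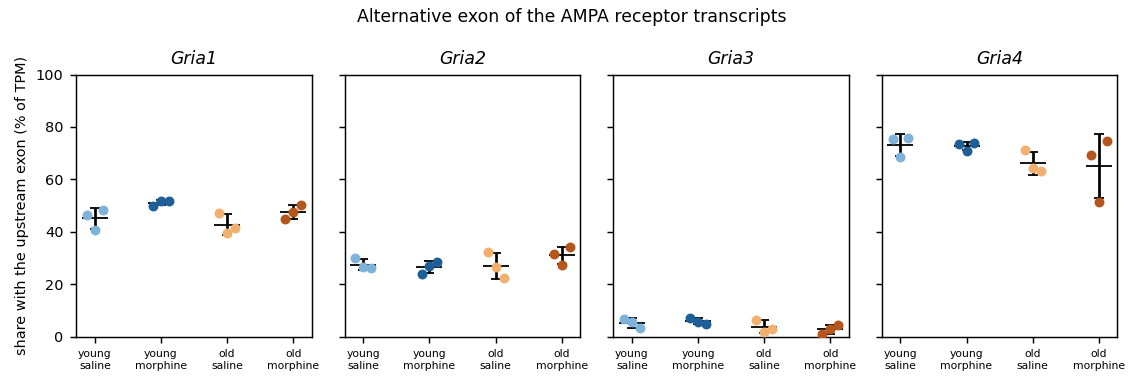
Share of each AMPA receptor gene's TPM that comes from transcripts with the upstream exon of the 115-base pair, by group (percent, axis from 0 to 100); points are libraries, bars the mean and SD (n = 3). Young morphine lies above young saline for Gria1, and the 4 genes keep distinct levels in nearly all libraries.

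Channel make-up was compared by 12 ratios of gene TPM, each tested for age within treatment and for morphine within age by a two-sided exact permutation test over 400 assignments, 24 tests in all with a smallest possible p of 0.005. None passed after Benjamini-Hochberg adjustment. Differences are given in the log2 of the ratio. The ratio of group II to group III metabotropic receptors differed by -0.22 with morphine (exact permutation p = 0.02, adjusted p = 0.2), and Grik2 to Grik5 was 0.24 higher in old mice (exact permutation p = 0.025, adjusted p = 0.2). The switch ratio Grin2a to Grin2b, which is known to rise as cortex matures, was -0.10 for age (exact permutation p = 0.27) and 0.01 for morphine (exact permutation p = 0.945). The sum of ionotropic glutamate subunits over that of GABA-A subunits was 0.05 for age (exact permutation p = 0.195) and -0.01 for morphine (exact permutation p = 0.91).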

How the data were processed

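Total RNA of 12 libraries was sequenced after ribosomal depletion. Per the submitters' processing notes the tools were Salmon 1.4.0 and DESeq2 1.30.1 and the build was GRCm38; the annotation release, strand setting and bias options are not stated in the sources used here. The deposited tables give, for each of 113911 transcripts, an estimated count and a TPM value, per the file headers. Transcripts were joined to GENCODE M21 by identifier without version (113694 matched; 217, under 0.1% of reads, were left out), and the estimated counts of each gene's transcripts were added up and rounded to whole numbers.

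Genes were tested in R 4.3.3 with edgeR 4.0.16 (TMM scaling, filterByExpr, robust quasi-likelihood fit of 4 group means, 8 residual degrees of freedom, Benjamini-Hochberg threshold 0.05). CPM are TMM-scaled. DESeq2 1.42.0 and limma-voom 3.58.1, other filters and scalings, removal of a spline trend on GC share and length (5 degrees of freedom each), an olfactory marker covariate and omission of libraries were alternatives. The fit was tested on simulated counts with known age changes. These had no trend on GC share or length and no olfactory bulb pattern, so that test cannot speak to either. Intervals are 95%.

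The members and lists were chosen with earlier results of these data known. Values by library are given for members called in any comparison, the 3 with the smallest p in each, the member of each class with the highest TPM, and Grin1, Grm2 and Gabra2; of partner lists at most 4 called genes are named per list. A few genes that these rules name are not reported here, though the counts include them. Grm4 by library and the AMPA exon share were picked after their values were seen. Replicates were not paired, since the numbers are not said to mark shared animals.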

Additional observations from a re-analysis of the deposited data

How the results depend on the processing

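The counts of called members rested on scaling and on single libraries. For age over both treatments (6 called), length-scaled counts gave 2, removal of the GC and length trend 3, and omission of the 4 libraries high in olfactory bulb markers 0, an omission chosen after the marker levels were seen; leaving out 1 library at a time gave 4 to 7, and Grm2, Grin3a, Grik5 and Grin1 were called in all 12 of these fits, Grm3 in 6 and Gabra2 in 3. For age under morphine (5 called), length-scaled counts, trend removal and the 4-library omission each gave 0, and leaving out 1 library 3 to 5. For age under saline (0 called) DESeq2 gave 4, and leaving out 1 library 0 to 1. For morphine in old mice (0 called) leaving out 1 library gave 0 to 3; for morphine over both ages (0 called) the olfactory covariate gave 1, and leaving out 1 library 0 to 2. The single transcript call became 4 under a minimum of 1 CPM in 6 libraries, and leaving out 1 library gave 0 to 1. Morphine in young mice, the interaction and the subunit ratios gave 0 under every alternative run.

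Gabra2 changed sign. With the trend removed its age difference was -0.0634 under saline, -0.10 under morphine and -0.0793 over both. Under saline, where the main value was 0.01, it was also -0.00758 with the olfactory covariate. Without the 4 libraries, which leaves 1 old saline library, it was -0.0682. It ran from -0.0389 to 0.0450 when 1 library at a time was left out. The cause was not tested. A difference of the size of the interaction estimates had a median standard error of 0.10 (log2), which limits what 3 libraries a group can show.

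Replicate numbers are shared between groups, but of 18 same-numbered pairs only 3 correlated above 0.1 (range -0.416 to 0.182), and 0 libraries correlated best with their own number. With the replicate number as a block, age over both treatments called 5 members, age under morphine 5, all other gene comparisons 0, and receptor transcripts 0. The block together with trend removal called 2 members for age over both treatments (Grin3a and Grm2) and 0 for age under morphine, and gave Gabra2 -0.0624 under saline, -0.10 under morphine and -0.0789 over both.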
